A study of Mus musculus with 12 samples.

Results

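The 32 genes described here carry glucose from the cell surface to lactate or belong to the response to low oxygen: the factor Hif1a, the glucose transporters Slc2a1 and Slc2a3, 16 genes of glycolytic enzymes (Hk1, Hk2, Gpi1, Pfkl, Pfkp, Pfkm, Aldoa, Aldoc, Tpi1, Gapdh, Pgk1, Pgam1, Eno1, Pkm, Ldha and Ldhb), the regulators Pfkfb3, Pfkfb4 and Pdk1, the lactate transporters Slc16a1 and Slc16a3, the prolyl hydroxylases Egln1 and Egln3 and the hypoxia targets Bnip3, Bnip3l, Ankrd37, P4ha1, Vegfa and Ero1l. They were taken as a fixed list by symbol, from 31053 features in the mRNA matrices. All 32 were found, Ero1l under its older symbol. They were read in T cells from the pancreatic islets of female NOD mice, 12 weeks old and not yet diabetic. NOD is a strain that develops autoimmune diabetes spontaneously. Live cells positive for the T cell receptor (TCR) had been sorted and profiled by CITE-seq in 4 biological replicates with TCR libraries. CITE-seq counts mRNA molecules (UMIs) and bound antibodies in the same cell. Whether each replicate pooled several mice is not in the labels. All cells come from 1 strain, sex, age and tissue with no healthy or treated group, so every comparison sets populations of the same libraries against each other. The p-values measure the spread between these 4 libraries.

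CD8 cells held fewer than 20 counts of the CD4 antibody and at least 2 UMIs of Cd8a and Cd8b1. CD4 conventional cells held at least 40 counts of the CD4 antibody, no UMI of Cd8a or Cd8b1 and none of Foxp3, the factor that defines regulatory T cells. Treg were the same with at least 1 Foxp3 UMI. Each lineage was split by the antibody against CD62L, the lymph node homing receptor that T cells lose on activation, into CD62L-low (at most 3 counts) and CD62L-high (at least 10). CD62L-low cells were split further into cycling cells (at least 2 UMIs of Mki67, Top2a, Birc5, Cdk1 and Ccnb2) and resting cells. Those with a paired receptor were also split into expanded clones (at least 2 cells with the same receptor in a library) and single cells. Cells without a paired receptor entered neither class. In library 3, for example, 322 of 767 CD8 CD62L-low cells were expanded and 91 single. The gates held 16426 of 22563 cells kept, and each of the 4 libraries gave 1 sum of UMIs per population. Levels are UMIs of a gene scaled to a common total of 1000000 per sum (CPM), with values listed from library 1 to library 4.

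Glycolysis splits glucose into pyruvate in the cytosol. T cells that divide or make effector molecules are known to run it at a high rate and to release part of the pyruvate as lactate even where oxygen is present. Hif1a encodes the oxygen-regulated subunit of HIF-1, which binds DNA and drives many genes of glycolysis. Prolyl hydroxylases of the Egln family mark the protein for degradation when oxygen is present and are themselves in part HIF targets. HIF-1 is regulated mainly through protein stability, which mRNA counts do not read.

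HIF-1 binds a short core, ACGTG or GCGTG, so the promoter windows of the listed genes were searched for both on either strand, with overlapping matches counted apart. Windows of 300 bases, from 250 before to 50 after the first listed start site, came from RefSeq (mouse build GRCm38.p6) for 30 of the 32 genes, without Slc2a3 and Bnip3l. At least 1 core stood in 24 of the 30 windows (80%), against 43.8% of 27025 windows of all genes. At least 2 cores stood in 19 windows (63.3%), against 20.8% of all windows. The palindrome CACGTG, which also holds the core and is bound by other factors such as Myc, stood in 5 of the 30 windows, against 7.24% of all. A match is a string of letters and not a measured binding site. The list holds hypoxia targets by choice, and the windows were not matched for base composition. The larger shares are therefore a description and not a test.

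The windows of 5 genes are printed because their mRNAs moved apart in the comparisons below although each window holds a core. Ldha, Pgk1 and Slc16a3 were higher, and Pdk1 lower, in cycling CD8 and cycling CD4 conventional cells than in resting ones. Egln3 differed in direction between CD8 and CD4 conventional cells. Letters in capitals are the cores and, where matches overlap, the whole run; each line reads 5′ to 3′ on the gene's strand.
Ldha promoter, chr7:46845554-46845853, + strand: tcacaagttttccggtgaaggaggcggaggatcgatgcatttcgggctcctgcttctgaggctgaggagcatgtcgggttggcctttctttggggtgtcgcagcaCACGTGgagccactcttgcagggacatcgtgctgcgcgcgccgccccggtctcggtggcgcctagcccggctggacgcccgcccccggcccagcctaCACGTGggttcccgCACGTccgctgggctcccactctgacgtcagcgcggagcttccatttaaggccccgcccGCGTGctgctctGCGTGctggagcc
Pgk1 promoter, chrX:106186850-106187149, + strand: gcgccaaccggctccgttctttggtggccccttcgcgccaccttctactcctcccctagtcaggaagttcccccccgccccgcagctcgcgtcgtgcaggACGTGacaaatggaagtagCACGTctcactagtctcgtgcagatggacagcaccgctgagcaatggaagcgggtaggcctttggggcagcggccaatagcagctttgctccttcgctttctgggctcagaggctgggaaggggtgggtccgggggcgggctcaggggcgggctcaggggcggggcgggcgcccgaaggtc
Slc16a3 promoter, chr11:120948817-120949116, + strand: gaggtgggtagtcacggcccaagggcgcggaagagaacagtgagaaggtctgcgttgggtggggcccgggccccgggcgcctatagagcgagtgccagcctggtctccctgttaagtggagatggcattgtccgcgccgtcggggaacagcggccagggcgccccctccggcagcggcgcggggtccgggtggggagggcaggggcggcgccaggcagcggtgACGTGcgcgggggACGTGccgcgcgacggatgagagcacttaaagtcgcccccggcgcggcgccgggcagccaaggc
Pdk1 promoter, chr2:71872974-71873273, + strand: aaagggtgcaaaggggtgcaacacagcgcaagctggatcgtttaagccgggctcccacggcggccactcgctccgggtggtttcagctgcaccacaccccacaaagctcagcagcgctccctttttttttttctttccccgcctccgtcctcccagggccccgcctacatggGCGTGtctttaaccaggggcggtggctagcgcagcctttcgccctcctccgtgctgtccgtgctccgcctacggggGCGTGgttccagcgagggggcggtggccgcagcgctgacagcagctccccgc
Egln3 promoter, chr12:54203825-54204124, - strand: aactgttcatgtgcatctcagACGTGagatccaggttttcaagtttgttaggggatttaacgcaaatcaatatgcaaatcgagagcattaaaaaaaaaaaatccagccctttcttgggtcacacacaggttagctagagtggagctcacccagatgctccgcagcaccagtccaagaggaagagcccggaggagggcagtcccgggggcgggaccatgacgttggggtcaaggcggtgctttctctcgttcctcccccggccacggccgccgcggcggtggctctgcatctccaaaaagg
The Ldha window holds 7 cores, those of Pgk1, Slc16a3 and Pdk1 hold 2 each and that of Egln3 holds 1.

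The libraries held 34661827, 26861163, 37834174 and 32141055 RNA UMIs. They left 4961, 3337, 7259 and 7006 cells after filtering, whose median UMI counts were 3829, 4207, 2830 and 2601. Libraries 3 and 4 stood apart: 4.13, 5.24, 36.8 and 29.9% of kept cells carried fewer than 20 counts of CD11a, an integrin that T cells bear, in libraries 1 to 4. Among CD8 CD62L-low cells these were 3.05, 3.54, 36.0 and 22.4%. Leaving them out kept 182 of 183 calls on the listed genes. The same barcode sequence also occurred in another library for 176, 137, 231 and 213 barcodes. Markers outside the gates followed them: Il2ra, a receptor chain typical of Treg, averaged 182 CPM in Treg and 34.1 CPM in CD4 conventional CD62L-low cells. The 2 NK cell markers summed to at most 2.56 CPM in CD8 CD62L-low cells. Of other cell types, the 4 B cell markers summed to 404 to 467 CPM in Treg CD62L-low and 148 to 182 CPM in CD4 conventional CD62L-low cells, nearly all of it Ighm. Ms4a1, the gene of the B cell surface antigen CD20, was at 0 in Treg CD62L-low cells and at 0.147 to 0.525 CPM in CD4 conventional CD62L-low cells. The 4 endocrine markers reached 577 CPM in 1 library of CD8 CD62L-low cells.

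Cycling CD62L-low cells held more glycolytic enzyme mRNA, as a share of all UMIs, than resting ones, in the same direction in CD8 cells, CD4 conventional cells and Treg for most steps of the pathway. 13 genes were higher in cycling cells of all 3 lineages: Gpi1, Pfkl, Pfkp, Aldoa, Tpi1, Gapdh, Pgk1, Pgam1, Eno1, Pkm and Ldha, together with the lactate transporter Slc16a1 and Ero1l, an oxidase that forms disulfide bonds in the endoplasmic reticulum. The 11 enzymes among them form a row from the second step of glycolysis to lactate, but not in every fit. With cells thinned to 1500 UMIs, as described below, Gpi1 and Aldoa in Treg were at log2 fold changes of -0.00049 and -0.070 and not called. The Gpi1 call was also lost in 2 fits with a library left out in Treg and in 1 in CD8 cells. Only 2 listed genes were lower in cycling cells of all 3 lineages: the glucose transporter Slc2a3 and Bnip3l, which marks mitochondria for removal. The share of all genes that went the same way in all 3 lineages was not counted.

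Calls rest on edgeR's quasi-likelihood test over all genes with Benjamini-Hochberg adjustment, at an adjusted p under 0.05 and with the library as a block; folds are log2 of cycling over resting. In CD8 cells 16 of 26 listed genes with enough counts to be tested were called higher and 4 lower, where 59% of all genes were called in either direction and 30.1% were called higher. In CD4 conventional cells 20 of 31 were higher and 5 lower, with 59.2% of all genes called, 30.1% higher and 29.1% lower. In Treg 13 of 24 were higher and 2 lower, with 45.5% called and 24.8% higher. Calls were common among all genes, so direction and size say more here than the count. The median log2 fold change of the listed genes was 0.52, 0.39 and 0.33 in CD8, CD4 conventional and Treg cells, beside -0.024, -0.032 and -0.024 over all genes.

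**Figure D1:**
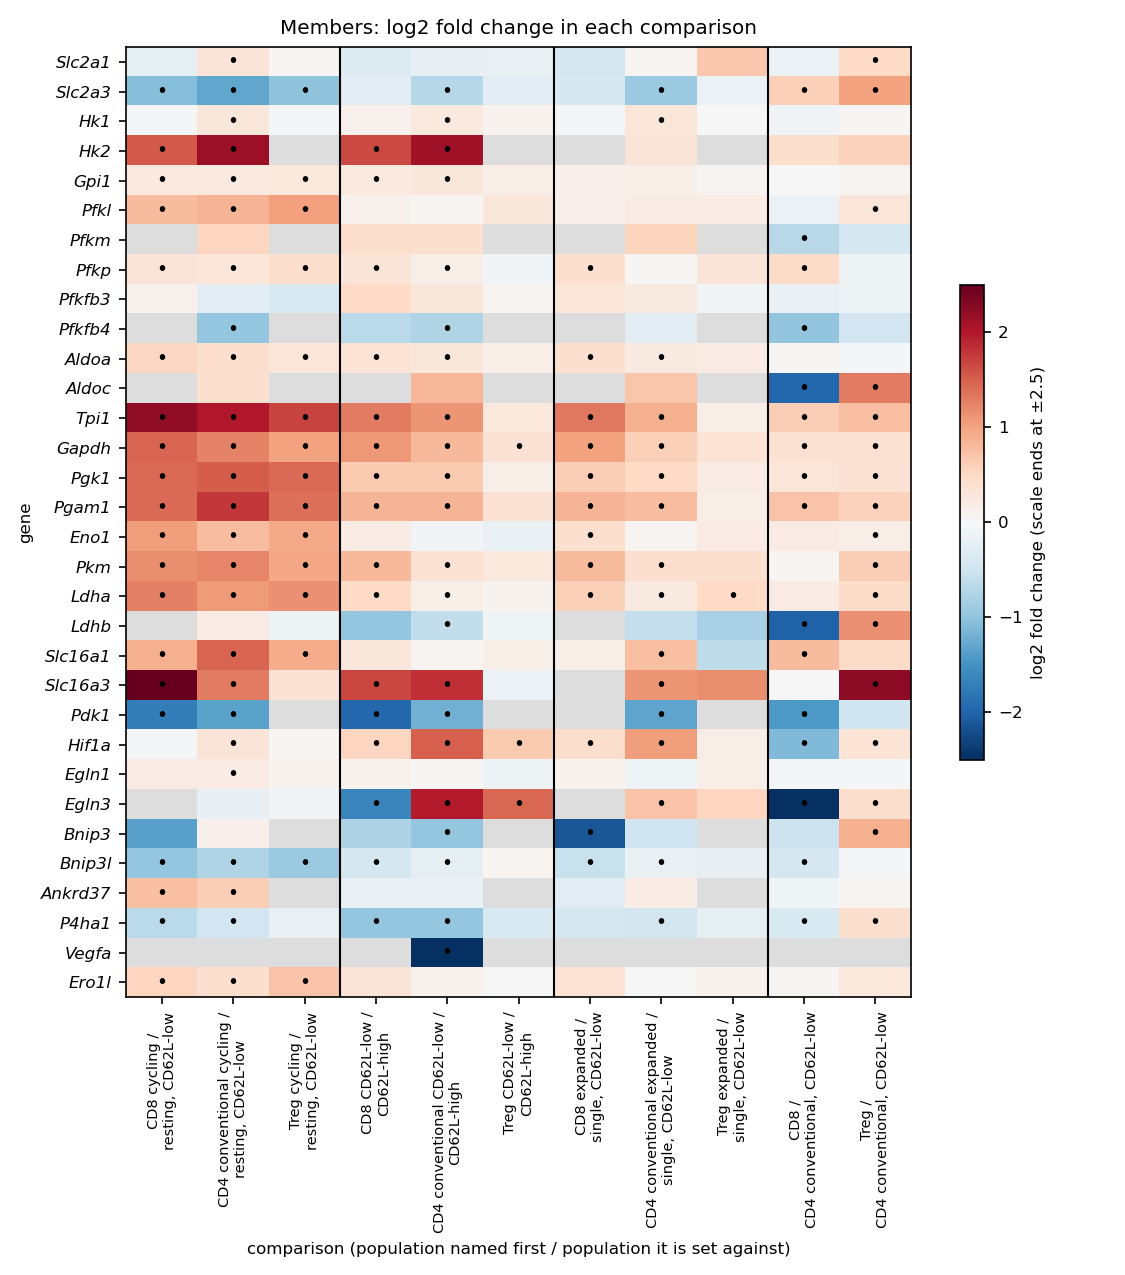
Log2 fold changes of the 32 listed genes (one line each, ordered by role) in 11 comparisons between populations (columns), with the colour scale ending at 2.5 in either direction, a dot where the gene was called at an edgeR adjusted p under 0.05 and grey where it was not tested. The block of glycolytic enzymes is higher in cycling cells of the 3 lineages, while Hif1a has its highest folds in the CD62L and clone columns of CD4 conventional cells.

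The later steps, from triose phosphates to lactate, were higher in every cycling library. Tpi1, triose phosphate isomerase, stood at 260.5, 214, 287 and 279 CPM in cycling CD8 cells, against 40.8, 54.4, 73.6 and 62.7 CPM in resting CD8 cells. It stood at 212, 236, 265 and 252 CPM in cycling CD4 conventional cells and 56.9, 65.7, 62.0 and 69.6 CPM in resting ones. In Treg the values were 233, 313, 248 and 354 CPM in cycling and 88.9, 119.6, 106 and 78.0 CPM in resting cells. Every cycling value lay above every resting value within each lineage. The Tpi1 log2 fold changes were 2.22 ± 0.10 (SE) in CD8 cells, 2.0 ± 0.070 in CD4 conventional cells and 1.69 ± 0.13 in Treg (edgeR adjusted p = 5.3e-14, 1.6e-16 and 3.0e-12). Gapdh, the dehydrogenase that follows, read 2175, 1719, 1957 and 1459 CPM in cycling and 686, 586, 803 and 679.5 CPM in resting CD8 cells. Its values were 1906, 1622, 1934 and 1346 CPM in cycling and 843, 741, 822 and 630.3 CPM in resting CD4 conventional cells. In Treg it read 1973, 1865, 1759 and 1434 CPM in cycling and 1145, 975, 1076 and 727 CPM in resting cells. The groups were again apart in all 3 lineages. The Gapdh log2 fold changes were 1.45 ± 0.076, 1.24 ± 0.040 and 1.0 ± 0.075 (SE) in CD8, CD4 conventional and Treg cells (edgeR adjusted p = 1.6e-11, 3.3e-17 and 2.3e-13).

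Pgk1, which makes the first ATP of the pathway, stood at 295, 312, 315 and 323 CPM in cycling and 115, 106, 128 and 137 CPM in resting CD8 cells. In Treg it stood at 296, 362, 318 and 423 CPM in cycling and 134, 162, 135 and 144 CPM in resting cells. All cycling values were the higher ones in these lineages and in CD4 conventional cells. The Pgk1 log2 fold changes were 1.41 ± 0.074, 1.51 ± 0.075 and 1.42 ± 0.11 (SE) in CD8, CD4 conventional and Treg cells (edgeR adjusted p = 1.1e-13, 1.2e-11 and 5.4e-13). Pgam1, phosphoglycerate mutase, read 320.3, 287, 327 and 319 CPM in cycling and 117, 113, 128 and 131 CPM in resting CD8 cells. Every cycling value of Pgam1 lay above every resting value (log2 fold change 1.41 ± 0.071 SE, edgeR adjusted p = 5.3e-14). Among CD4 conventional cells it read 267, 281, 287 and 297 CPM in cycling and 83.2, 89.9, 82.0 and 95.9 CPM in resting cells. Pgam1 did not overlap between cycling and resting cells and was higher in cycling cells (log2 fold change 1.77 ± 0.064 SE, edgeR adjusted p = 2.6e-16). Pkm, the last enzyme before pyruvate, stood at 997, 1016, 1065 and 1021 CPM in cycling and 451, 456, 459 and 501 CPM in resting CD4 conventional cells. The Pkm ranges were apart, with all 4 cycling values the higher ones (log2 fold change 1.21 ± 0.045 SE, edgeR adjusted p = 4.2e-16). In Treg Pkm read 1132, 1288, 1142 and 1456 CPM in cycling and 641, 699.6, 753 and 742 CPM in resting cells. All Pkm values of cycling cells were above those of resting cells (log2 fold change 0.97 ± 0.079 SE, edgeR adjusted p = 2.6e-12). Ldha, which turns pyruvate into lactate, stood at 1059.8, 1017, 1182 and 1257 CPM in cycling and 416, 467, 501 and 582 CPM in resting CD8 cells. Every cycling value of Ldha lay above every resting value (log2 fold change 1.26 ± 0.063 SE, edgeR adjusted p = 5.3e-14). In Treg it reached 1273, 1497, 1256 and 1624 CPM in cycling and 635, 761, 608 and 835 CPM in resting cells. Ldha did not overlap between cycling and resting cells and was higher in cycling cells (log2 fold change 1.14 ± 0.076 SE, edgeR adjusted p = 1.1e-14). Among CD4 conventional cells Ldha rose by a log2 fold change of 1.07 ± 0.047 (SE).

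The entry steps showed smaller changes or rested on low counts. Hk2, the inducible hexokinase, read 8.64, 7.08, 17.3 and 6.66 CPM in cycling and 3.09, 1.73, 5.47 and 3.88 CPM in resting CD8 cells. The Hk2 ranges were apart, with all 4 cycling values the higher ones (log2 fold change 1.53 ± 0.32 SE, edgeR adjusted p = 2.7e-04). Within CD4 conventional cells it read 8.60, 12.2, 23.1 and 6.45 CPM in cycling and 2.56, 3.49, 3.63 and 1.84 CPM in resting cells. All Hk2 values of cycling cells were above those of resting cells (log2 fold change 2.14 ± 0.29 SE, edgeR adjusted p = 1.0e-06). Library 3 was the highest cycling library in both lineages, and Hk2 was not tested in Treg for want of counts. Hk1, the constitutive hexokinase, was called only in CD4 conventional cells, at 0.28 ± 0.094 (SE). That call was lost without library 2 (log2 fold change 0.20, adjusted p = 0.094) or library 3 (log2 fold change 0.20, adjusted p = 0.11). Of the phosphofructokinases, which set the pace of the pathway, Pfkl rose by 0.78 ± 0.13, 0.85 ± 0.10 and 1.03 ± 0.18 (log2, SE) in CD8, CD4 conventional and Treg cells. Pfkp rose by 0.33 ± 0.089, 0.29 ± 0.071 and 0.43 ± 0.14. The Treg call of Pfkp was lost without library 4 (log2 fold change 0.31, adjusted p = 0.11). As a share of the UMIs of Pfkl, Pfkm and Pfkp together, Pfkp stood at 76.6% ± 1.64 in cycling and 80.8% ± 2.44 in resting CD8 cells. For CD4 conventional cells it stood at 63.8% ± 3.69 in cycling and 71.4% ± 1.18 in resting cells (SD, n = 4 each, exact sign permutation p = 0.13, the smallest that 4 pairs allow). The share was lower in cycling cells in all 4 libraries of both lineages.

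The glucose transporters parted. Slc2a3 (GLUT3) was lower in cycling cells, at 12.6, 10.3, 15 and 17.9 CPM in cycling and 33.4, 31.5, 28.8 and 31.6 CPM in resting CD8 cells. Every cycling value of Slc2a3 lay below every resting value (log2 fold change -1.06 ± 0.18 SE, edgeR adjusted p = 1.9e-05). In CD4 conventional cells it read 4.30, 11.0, 5.78 and 7.83 CPM in cycling and 17.2, 22.3, 14.1 and 19.8 CPM in resting cells. Slc2a3 did not overlap between cycling and resting cells and was lower in cycling cells (log2 fold change -1.29 ± 0.21 SE, edgeR adjusted p = 1.5e-05). Treg held 18.8, 29.4, 13.0 and 15 CPM in cycling and 35.5, 43.0, 49.6 and 50.3 CPM in resting cells. The Slc2a3 ranges were apart, with all 4 cycling values the lower ones (log2 fold change -1.0 ± 0.25 SE, edgeR adjusted p = 0.0012). Slc2a1 (GLUT1), the transporter that activated T cells are known to raise, stood at 23.3, 13.5, 27.6 and 20.3 CPM in cycling and 17.9, 28.0, 24.4 and 31.6 CPM in resting CD8 cells, with overlapping groups and no call (log2 fold change -0.22 ± 0.20, SE). Slc2a1 was called in CD4 conventional cells at 26.3, 34.7, 33.9 and 25.3 CPM in cycling and 21.8, 22.1, 30.0 and 27.2 CPM in resting cells. The Slc2a1 ranges overlapped, and 3 of 4 libraries were higher in cycling cells (log2 fold change 0.32 ± 0.14 SE, edgeR adjusted p = 0.049). That call was lost without library 1 (log2 fold change 0.31, adjusted p = 0.11), library 2 (log2 fold change 0.18, adjusted p = 0.32) or library 3 (log2 fold change 0.32, adjusted p = 0.098). Of the UMIs of both transporters, Slc2a1 held 59.9% ± 5.93 in cycling and 44.5% ± 6.58 in resting CD8 cells. The share was 80.9% ± 5.49 in cycling and 57.9% ± 7.58 in resting CD4 conventional cells. It was 66.4% ± 9.49 in cycling and 46.6% ± 8.28 in resting Treg (SD, n = 4 each). It was higher in cycling cells in all 4 libraries of each lineage (exact sign permutation p = 0.13 each).

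Among the lactate transporters, Slc16a1 (MCT1) rose by 0.90 ± 0.20, 1.46 ± 0.21 and 0.92 ± 0.36 (log2, SE) in CD8, CD4 conventional and Treg cells. The Treg call was lost without library 2 (log2 fold change 0.59, adjusted p = 0.34) or library 4 (log2 fold change 0.76, adjusted p = 0.17). Slc16a3 (MCT4), the exporter typical of glycolytic cells, read 11.3, 2.58, 7.94 and 7.53 CPM in cycling and 0.618, 0.863, 0.994 and 1.66 CPM in resting CD8 cells. Every cycling value of Slc16a3 lay above every resting value (log2 fold change 2.73 ± 0.48 SE, edgeR adjusted p = 3.9e-05). Among CD4 conventional cells it read 6.69, 10.4, 11.6 and 4.6 CPM in cycling and 3.33, 3.68, 2.82 and 3.68 CPM in resting cells. Slc16a3 did not overlap between cycling and resting cells and was higher in cycling cells (log2 fold change 1.31 ± 0.32 SE, edgeR adjusted p = 0.0014). Slc16a3 was not called in Treg. Bnip3l was lower in cycling cells, at 85.7, 77.9, 70.9 and 72.1 CPM in cycling and 148, 177, 149.6 and 143 CPM in resting CD8 cells. The Bnip3l ranges were apart, with all 4 cycling values the lower ones (log2 fold change -0.96 ± 0.087 SE, edgeR adjusted p = 1.7e-09). The folds in CD4 conventional cells and Treg were -0.75 ± 0.073 and -0.93 ± 0.12 (log2, SE), also with no overlap of the groups. Pdk1, a pyruvate dehydrogenase kinase, stood at 3.82, 4.87, 3.61 and 3.68 CPM in cycling and 12.3, 9.11, 12.1 and 9.74 CPM in resting CD4 conventional cells. All Pdk1 values of cycling cells were below those of resting cells (log2 fold change -1.34 ± 0.27 SE, edgeR adjusted p = 1.8e-04). P4ha1, a collagen prolyl hydroxylase and HIF target, read 34.9, 33.5, 36.1 and 24.4 CPM in cycling and 48.1, 52.3, 42.9 and 43.5 CPM in resting CD4 conventional cells. Every cycling value of P4ha1 lay below every resting value (log2 fold change -0.47 ± 0.12 SE, edgeR adjusted p = 0.0014). Pdk1 and P4ha1 were also lower in cycling CD8 cells, by folds of -1.72 ± 0.49 and -0.67 ± 0.14 (log2, SE), again with no overlap. Pdk1 in CD8 cells had too few counts to be tested without library 1 or 2. Hif1a itself was not called in CD8 cells, at 211, 171, 179.9 and 156 CPM in cycling and 204, 204, 188 and 168 CPM in resting CD8 cells with overlap (log2 fold change -0.038 ± 0.074, SE). It was not called in Treg either, but was in CD4 conventional cells (log2 fold change 0.32 ± 0.055 SE, edgeR adjusted p = 2.8e-05).

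**Figure D2:**
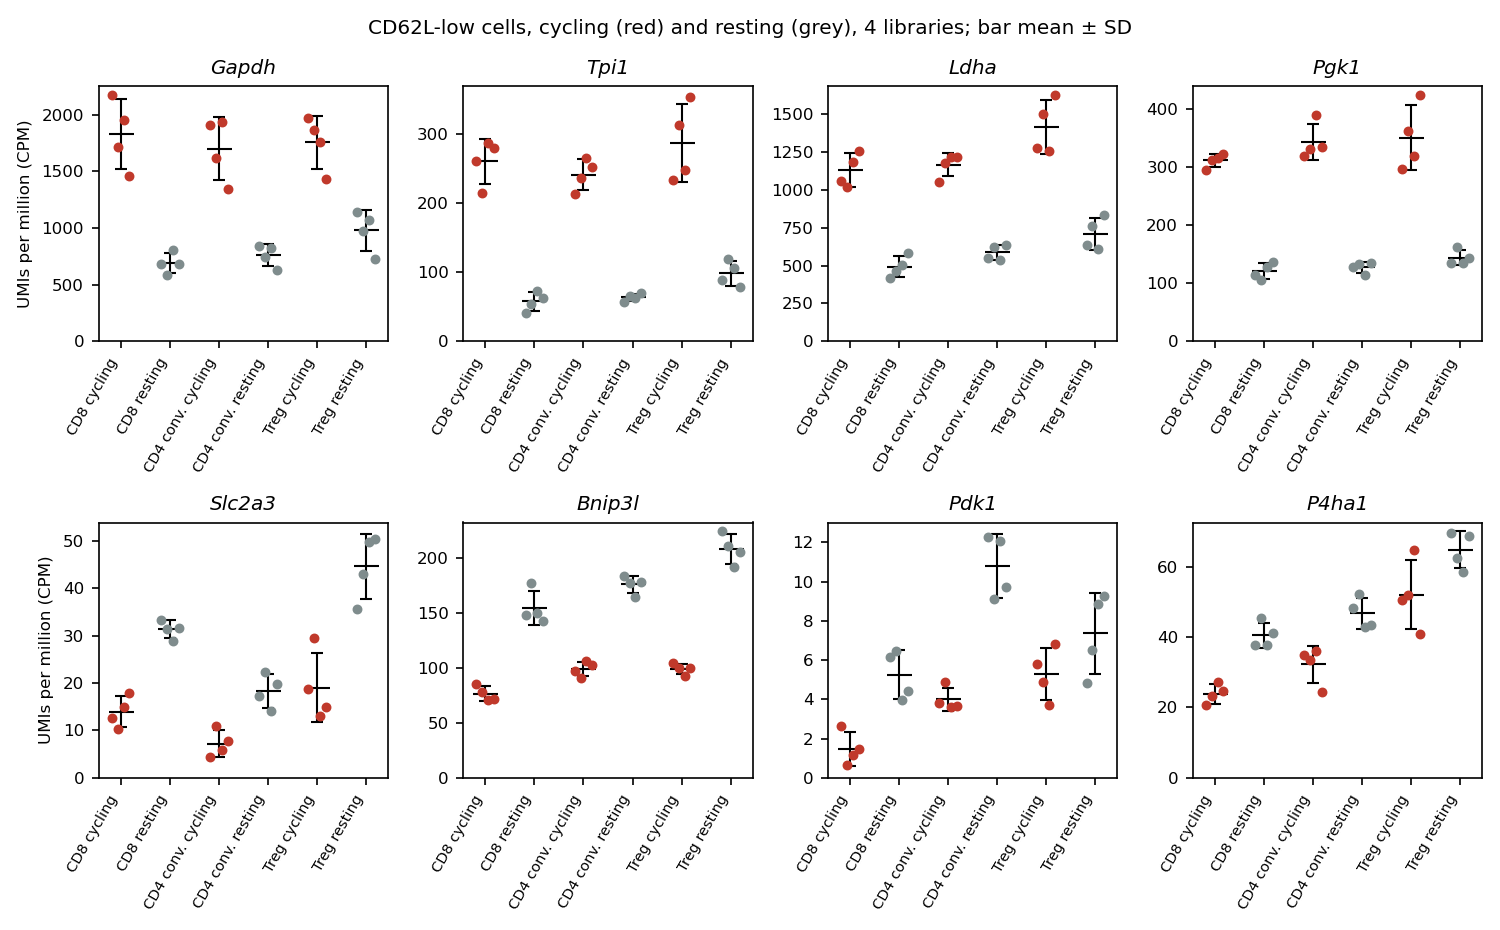
CPM per library (points) and mean ± SD (bars) of 8 listed genes in cycling (red, left) and resting (grey, right) CD62L-low cells of each lineage. Gapdh, Tpi1, Ldha and Pgk1 lie higher in every cycling library than in any resting one, and Slc2a3 and Bnip3l lie lower, while Pdk1 and P4ha1 overlap in Treg alone.

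Genes around the 32 were read from 4 further lists, and glycolysis genes outside the 32 were mostly higher in cycling cells too. Of 20 other genes of glycolysis and the pentose phosphate branch, 9 of 11 tested were higher and 0 lower in cycling CD8 cells. These numbers were 8 and 1 of 13 in CD4 conventional cells, and 7 and 0 of 11 in Treg. Tkt, transketolase, had folds of 1.45 ± 0.072, 1.36 ± 0.062 and 1.06 ± 0.11 in CD8, CD4 conventional and Treg cells (log2, SE). Rpia, which makes ribose phosphate for nucleotides, had folds of 0.80 ± 0.10, 0.63 ± 0.088 and 0.84 ± 0.16. Of 20 other hypoxia genes 4 were higher and 5 lower of 14 tested in CD8 cells, so that list split. The numbers were 4 and 4 of 16 in CD4 conventional cells, and 2 and 2 of 13 in Treg. Its largest fold in Treg was that of the cytokine Mif at 1.49 ± 0.091. Kdm3a, a histone demethylase induced by hypoxia, was lower in CD8 cells and Treg at -0.94 ± 0.15 and -0.82 ± 0.25. Of 9 genes at the entry of pyruvate into mitochondria, 3 were higher and 1 lower in CD8 cells and 4 and 1 in CD4 conventional cells. Mpc1, a pyruvate carrier, was higher by 0.52 ± 0.10 in CD8 and 0.65 ± 0.079 in CD4 conventional cells. The pyruvate dehydrogenase kinase Pdk3 was higher by 0.68 ± 0.13 and 0.91 ± 0.12, whereas its relative Pdk2 was lower in CD8 cells at -2.44 ± 0.47. Txnip, which restrains glucose uptake, was lower in cycling cells of all 3 lineages at -2.57 ± 0.10, -2.19 ± 0.11 and -2.05 ± 0.15 in CD8, CD4 conventional and Treg cells. It belongs to a list of 12 regulators of glucose use, of which 3 were higher and 3 lower in CD8 cells, 4 and 3 in CD4 conventional cells, and 2 and 2 in Treg.

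Cycling cells held many more UMIs, with medians of 18439, 15527, 7777 and 13405 in cycling and 4361.5, 4585, 3201 and 3076.5 in resting CD8 cells. A gene lower in CPM is not thereby lower per cell. Fits were repeated with each cell thinned at random to 1500 UMIs, which left out the cells that held fewer. The gates and the cycling split were kept from all UMIs, so thinning does not reach how cells were assigned. Among CD62L-low cells 16.2% of CD8, 8.07% of CD4 conventional and 3.12% of Treg cells were left out. Among CD62L-high cells the shares were 1.23, 4.57 and 5.10%, so the thinned fits rest on an unevenly reduced set of cells. In them the folds of Tpi1 were 1.79, 1.91 and 1.67 in CD8, CD4 conventional and Treg cells. Those of Gapdh were 1.13, 1.04 and 0.74, and all 6 stayed called. The counts of listed genes called were smaller in these thinned fits, at 10 in CD8, 9 in CD4 conventional and 7 in Treg cells, against 20, 25 and 15 with all UMIs. For these and the other repeated fits below, the share of all genes called is not given. A smaller count there is therefore not a result about the listed genes. Slc2a3 was at -0.96 (edgeR adjusted p = 0.056) in CD8 and -1.39 (0.086) in CD4 conventional cells, and Aldoa in Treg at -0.070 (0.76), no longer called. A list of 4 dissociation-response genes summed to 823 to 1481 CPM in cycling and 1530.5 to 1995 CPM in resting CD8 cells. It summed to 854 to 2681 CPM in cycling and 3346 to 4624 CPM in resting CD4 conventional cells. In Treg it summed to 747 to 1734 CPM in cycling and 2498 to 4889.5 CPM in resting cells, and its part in the results was not tested. Aldoa, Tpi1, Gapdh, Pgk1, Eno1, Pkm and Ldha have near-identical copies in the mouse genome. The sources used here do not give how reads shared with such copies were counted, so their levels are uncertain to that extent. Summed over the 32 genes the level was higher in cycling cells by 0.88 ± 0.14, 0.76 ± 0.093 and 0.59 ± 0.13 on the log2 scale (SD over 4 libraries) in CD8, CD4 conventional and Treg cells. It was higher by 0.19 ± 0.093, 0.25 ± 0.085 and 0.037 ± 0.13 without these 7.

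CD62L-low CD8 and CD4 conventional cells held more mRNA of Tpi1, Gapdh, Pgk1, Pgam1, Pkm, Ldha and Hif1a than CD62L-high cells of the same lineage, and less of Pdk1 and P4ha1. In Treg the called genes were Hif1a, Gapdh and Egln3, all higher, and Eno1 was called in none of the 3 lineages. In CD8 cells 12 of 30 tested genes were higher and 4 lower in CD62L-low cells, with 38.6% of all genes called and 20.1% higher. Within CD4 conventional cells 14 of 32 were higher and 8 lower, with 46.4% called and 23.4% higher. In Treg 3 of 24 were higher and 0 lower, with 4.3% of all genes called and 1.87% called lower. There 6 listed genes had an unadjusted p under 0.05, a threshold for which the share of all genes is not given. Median log2 fold changes of the listed genes were 0.26 in CD8, 0.15 in CD4 conventional and 0.090 in Treg cells, beside -0.019, -0.017 and -0.011 over all genes. 12 genes were higher in both CD8 and CD4 conventional cells (Aldoa, Gapdh, Gpi1, Hif1a, Hk2, Ldha, Pfkp, Pgam1, Pgk1, Pkm, Slc16a3 and Tpi1). The 3 lower in both were Bnip3l, P4ha1 and Pdk1. The share of all genes called the same way in both lineages was not counted. Cycling cells were also more common among CD62L-low cells, at 17.6, 14.9, 32.9 and 31.0% in CD62L-low and 3.12, 5.08, 8.08 and 3.24% in CD62L-high CD8 cells. They made up 10.4, 7.10, 6.86 and 9.17% in CD62L-low and 1.99, 0.227, 3.61 and 2.85% in CD62L-high CD4 conventional cells. Each comparison was therefore repeated without cycling cells. With CD8 cells, other fits called fewer of the listed genes, at 3 (Pgk1, Pkm and P4ha1) with 1 cell per clonotype and 7 with cells thinned to 1500 UMIs. In CD4 conventional cells 15 and 12 genes were called in these fits.

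Hif1a and Gapdh were the listed genes called higher in CD62L-low cells of all 3 lineages, with and without cycling cells. For CD4 conventional cells Hif1a stood at 385, 401, 443 and 404 CPM in CD62L-low and 118, 113, 171 and 126 CPM in CD62L-high cells. In CD8 cells it stood at 207, 191, 183 and 159.8 CPM in CD62L-low and 103, 159, 133 and 88.7 CPM in CD62L-high cells. Treg held 479.8, 522, 578 and 541 CPM in CD62L-low and 318, 294, 356 and 331 CPM in CD62L-high cells. No groups overlapped, though the CD8 groups nearly met at one value. The log2 fold changes of Hif1a were 1.49 ± 0.061, 0.54 ± 0.12 and 0.66 ± 0.11 (SE) in CD4 conventional, CD8 and Treg cells (edgeR adjusted p = 8.3e-10, 0.0037 and 4.6e-04). Without cycling cells they were 1.62, 0.89 and 0.83, all called. The fold in CD8 cells was smaller than that in CD4 conventional cells (difference of log2 folds -0.93 ± 0.19 SE, edgeR adjusted p = 0.015). That call was lost without library 4 (log2 fold change -0.98, adjusted p = 0.094). The fold in Treg was smaller too (difference -0.83 ± 0.11 SE, edgeR adjusted p = 2.7e-05). With 1 cell per clonotype both differences lost their calls, at -0.76 for CD8 and -0.53 for Treg (edgeR adjusted p = 0.16 and 0.15). Those tests called 3 of 31 listed genes for CD8, with 4.15% of all genes called and 2.65% called lower. For Treg they called 3 of 31, with 5.35% of all called and 3.72% lower.

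Egln3, the prolyl hydroxylase that HIF itself induces, went opposite ways in the lineages. In CD4 conventional cells it read 15.5, 15.3, 15.8 and 16.4 CPM in CD62L-low and 2.21, 5.84, 2.67 and 5.28 CPM in CD62L-high cells. Egln3 did not overlap between CD62L-low and CD62L-high cells and was higher in CD62L-low cells (log2 fold change 1.99 ± 0.22 SE, edgeR adjusted p = 2.8e-06). In CD8 cells it read 3.52, 2.84, 2.03 and 1.90 CPM in CD62L-low and 6.55, 9.46, 4.24 and 10.8 CPM in CD62L-high cells. The Egln3 ranges were apart, with all 4 CD62L-low values the lower ones (log2 fold change -1.65 ± 0.38 SE, edgeR adjusted p = 0.0042). The CD8 values rest on 43 UMIs in CD62L-low and 48 UMIs in CD62L-high CD8 cells over the 4 libraries. The test of the difference gave -3.66 ± 0.43 on the log2 scale (SE, edgeR adjusted p = 3.3e-05). With 1 cell per clonotype it was -1.74 and no longer called (edgeR adjusted p = 0.13). Without cycling cells Egln3 remained called in CD4 conventional cells at 2.20, while in CD8 cells it was at -0.93 (edgeR adjusted p = 0.092). In Treg it read 21.4, 21.1, 17.2 and 28.2 CPM in CD62L-low and 7.18, 0, 4.62 and 15.9 CPM in CD62L-high cells. All Egln3 values of CD62L-low cells were above those of CD62L-high cells (log2 fold change 1.43 ± 0.41 SE, edgeR adjusted p = 0.045). That call was lost without library 1 (log2 fold change 1.42, adjusted p = 0.18), library 2 (log2 fold change 1.19, adjusted p = 0.12) or library 3 (log2 fold change 1.35, adjusted p = 0.17).

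In CD8 and CD4 conventional cells Gapdh, Pgam1 and Pkm were higher in CD62L-low cells whether or not cycling cells were counted, whereas Ldha was not. Neither Pgam1 nor Pkm was called in Treg. Gapdh read 1404, 1041, 1528 and 1192 CPM in CD62L-low and 555, 578, 734 and 415 CPM in CD62L-high CD8 cells. Every CD62L-low value of Gapdh lay above every CD62L-high value (log2 fold change 1.08 ± 0.10 SE, edgeR adjusted p = 3.1e-05). Without cycling cells the fold was 0.72. Among CD4 conventional cells it read 1214, 954, 1064 and 834 CPM in CD62L-low and 603, 461, 617 and 429 CPM in CD62L-high cells. Gapdh did not overlap between CD62L-low and CD62L-high cells and was higher in CD62L-low cells (log2 fold change 0.81 ± 0.040 SE, edgeR adjusted p = 3.2e-10). The fold without cycling cells was 0.66. In Treg it read 1582, 1409, 1410.4 and 1075 CPM in CD62L-low and 1351, 898, 957 and 951 CPM in CD62L-high cells. The Gapdh ranges overlapped, and 4 of 4 libraries were higher in CD62L-low cells (log2 fold change 0.35 ± 0.094 SE, edgeR adjusted p = 0.031). Library 1 of the CD62L-high cells reached into the CD62L-low range, and the call was lost without library 1 (log2 fold change 0.42, adjusted p = 0.054), library 2 (log2 fold change 0.27, adjusted p = 0.18) or library 3 (log2 fold change 0.30, adjusted p = 0.23). Pkm stood at 542, 508, 685 and 765 CPM in CD62L-low and 304, 312, 364 and 318 CPM in CD62L-high CD8 cells. All Pkm values of CD62L-low cells were above those of CD62L-high cells (log2 fold change 0.82 ± 0.090 SE, edgeR adjusted p = 2.1e-05). Its fold was 0.49 without cycling cells. Pgam1 stood at 148, 136, 127 and 153 CPM in CD62L-low and 73.1, 54.7, 75.1 and 76.3 CPM in CD62L-high CD4 conventional cells. Every CD62L-low value of Pgam1 lay above every CD62L-high value (log2 fold change 0.86 ± 0.069 SE, edgeR adjusted p = 8.6e-08). Without cycling cells that fold was 0.43. Ldha read 726, 688, 929 and 1026 CPM in CD62L-low and 544, 568, 514 and 568 CPM in CD62L-high CD8 cells. Ldha did not overlap between CD62L-low and CD62L-high cells and was higher in CD62L-low cells (log2 fold change 0.49 ± 0.10 SE, edgeR adjusted p = 0.0032). Without cycling cells its fold was -0.0090 in CD8 cells (edgeR adjusted p = 0.95), and in CD4 conventional cells it was -0.090 (0.044, called lower), against 0.14 with all cells. The higher Ldha level of CD62L-low cells was not seen among resting cells. Tpi1 read 147, 119, 208 and 205 CPM in CD62L-low and 59.7, 67.6, 57.8 and 71.4 CPM in CD62L-high CD8 cells. The Tpi1 ranges were apart, with all 4 CD62L-low values the higher ones (log2 fold change 1.30 ± 0.14 SE, edgeR adjusted p = 4.3e-05). Its fold was 0.39 without cycling cells (edgeR adjusted p = 0.48). Within CD4 conventional cells Tpi1 read 111, 107, 106 and 122 CPM in CD62L-low and 48.2, 42.0, 51.8 and 44.3 CPM in CD62L-high cells. All Tpi1 values of CD62L-low cells were above those of CD62L-high cells (log2 fold change 1.11 ± 0.071 SE, edgeR adjusted p = 4.7e-09). Tpi1 stayed called there without cycling cells, at 0.70, as did Pgk1 at 0.34.

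Hk2 and Slc16a3 were higher in CD62L-low cells from low counts. For CD4 conventional cells Hk2 read 4.67, 5.59, 7.88 and 3.15 CPM in CD62L-low and 0.681, 1.06, 2.44 and 0.293 CPM in CD62L-high cells. Every CD62L-low value of Hk2 lay above every CD62L-high value (log2 fold change 2.11 ± 0.35 SE, edgeR adjusted p = 1.4e-04). The fold was 1.97 without cycling cells. In CD8 cells Slc16a3 read 5.76, 1.55, 5.36 and 5.52 CPM in CD62L-low and 1.82, 1.35, 1.59 and 0.721 CPM in CD62L-high cells. The Slc16a3 ranges overlapped, and 4 of 4 libraries were higher in CD62L-low cells (log2 fold change 1.66 ± 0.47 SE, edgeR adjusted p = 0.014). Library 2 of the CD62L-low cells lay within the CD62L-high range. That call was lost without library 1 (log2 fold change 1.77, adjusted p = 0.054), library 3 (log2 fold change 1.69, adjusted p = 0.058) or library 4 (log2 fold change 1.43, adjusted p = 0.06). Hk2 in CD8 cells was called as well (log2 fold change 1.66 ± 0.44 SE, edgeR adjusted p = 0.0091) and was lost without library 3 (log2 fold change 1.81, adjusted p = 0.058). Without cycling cells neither Hk2 nor Slc16a3 passed the low-count filter in CD8 cells, so neither call could be repeated there. Slc16a3 in CD4 conventional cells stood at 4.50, 5.29, 4.73 and 3.94 CPM in CD62L-low and 0.681, 1.06, 1.78 and 1.17 CPM in CD62L-high cells. The Slc16a3 ranges were apart, with all 4 CD62L-low values the higher ones (log2 fold change 1.82 ± 0.35 SE, edgeR adjusted p = 5.6e-04). This call held without cycling cells at 1.56.

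Pdk1 and P4ha1 were the clearest of the lower genes. Pdk1 read 4.48, 4.13, 2.22 and 2.47 CPM in CD62L-low and 12.0, 6.76, 9.55 and 17.3 CPM in CD62L-high CD8 cells. All Pdk1 values of CD62L-low cells were below those of CD62L-high cells (log2 fold change -1.96 ± 0.34 SE, edgeR adjusted p = 5.8e-04). Pdk1 was also lower in CD4 conventional cells (log2 fold change -1.21 ± 0.15 SE, edgeR adjusted p = 5.1e-06). P4ha1 read 29.5, 36.4, 31.2 and 30.2 CPM in CD62L-low and 62.2, 71.6, 44.0 and 54.8 CPM in CD62L-high CD8 cells. Every CD62L-low value of P4ha1 lay below every CD62L-high value (log2 fold change -0.96 ± 0.13 SE, edgeR adjusted p = 7.4e-05). Among CD4 conventional cells its fold was -0.97 ± 0.086 (log2, SE). No values overlapped in CD4 conventional cells either. Without cycling cells the folds in CD8 and CD4 conventional cells were -1.34 and -1.01 for Pdk1 and -0.77 and -0.89 for P4ha1, all called. Bnip3, a relative of Bnip3l with the same role, was lower in CD4 conventional cells at 4.17, 5.59, 4.57 and 2.89 CPM in CD62L-low and 9.20, 5.84, 8.0 and 6.16 CPM in CD62L-high cells. Bnip3 did not overlap between CD62L-low and CD62L-high cells and was lower in CD62L-low cells (log2 fold change -0.96 ± 0.23 SE, edgeR adjusted p = 0.0033). Bnip3 was not called in CD8 cells, where its groups overlapped (log2 fold change -0.77 ± 0.44, SE). Bnip3l was lower in CD62L-low CD8 and CD4 conventional cells with overlap, at log2 fold changes of -0.44 ± 0.11 and -0.23 ± 0.059 (SE). Neither call held without cycling cells, and that in CD8 cells was also lost without library 3 (log2 fold change -0.31, adjusted p = 0.076). Vegfa, the vascular growth factor, had the largest fold in CD4 conventional cells but rests on 7 UMIs in CD62L-low and 27 UMIs in CD62L-high cells. It read 0.333, 0.294, 0.158 and 0.263 CPM in CD62L-low and 2.21, 0.531, 2.0 and 1.17 CPM in CD62L-high cells. The Vegfa ranges were apart, with all 4 CD62L-low values the lower ones (log2 fold change -2.56 ± 0.62 SE, edgeR adjusted p = 0.0032). Without library 1 or library 3 it did not pass the filter on low counts. Of the glucose transporters, Slc2a3 was lower in CD62L-low CD4 conventional cells (log2 fold change -0.72 ± 0.12 SE, edgeR adjusted p = 1.2e-04), and Slc2a1 was called in none of the 3 lineages.

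Without cycling cells, calls held in the same direction for 8 of 16 genes in CD8, 18 of 22 in CD4 conventional and 2 of 3 in Treg cells. Pgk1 in CD8 cells was among those lost, at 0.17 (edgeR adjusted p = 0.2). In the lists around the 32 genes, Txnip was lower in CD62L-low cells at -1.30 ± 0.20, -1.04 ± 0.069 and -0.93 ± 0.14 (log2, SE) in CD8, CD4 conventional and Treg cells. Of the other hypoxia genes 5 were higher and 3 lower of 15 tested in CD8, and 4 and 6 of 16 in CD4 conventional cells. Among them Bhlhe40, a transcription factor that hypoxia and T cell activation both raise, was at 2.77 ± 0.13 in CD4 conventional cells. Plod2, a collagen lysyl hydroxylase, was at 2.61 ± 0.29 there, while Kdm3a was lower at -0.57 ± 0.089. Of the other glycolysis and pentose phosphate genes 4 and 0 of 12 were higher and lower in CD8 cells, and 3 and 1 of 14 in CD4 conventional cells. The 4 dissociation genes summed to 1137 to 1789 CPM in CD62L-low and 1139 to 2399.8 CPM in CD62L-high CD8 cells. In CD4 conventional cells they summed to 2802 to 4155 CPM in CD62L-low and 2579.7 to 5753 CPM in CD62L-high cells, and their part was not tested.

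**Figure D3:**
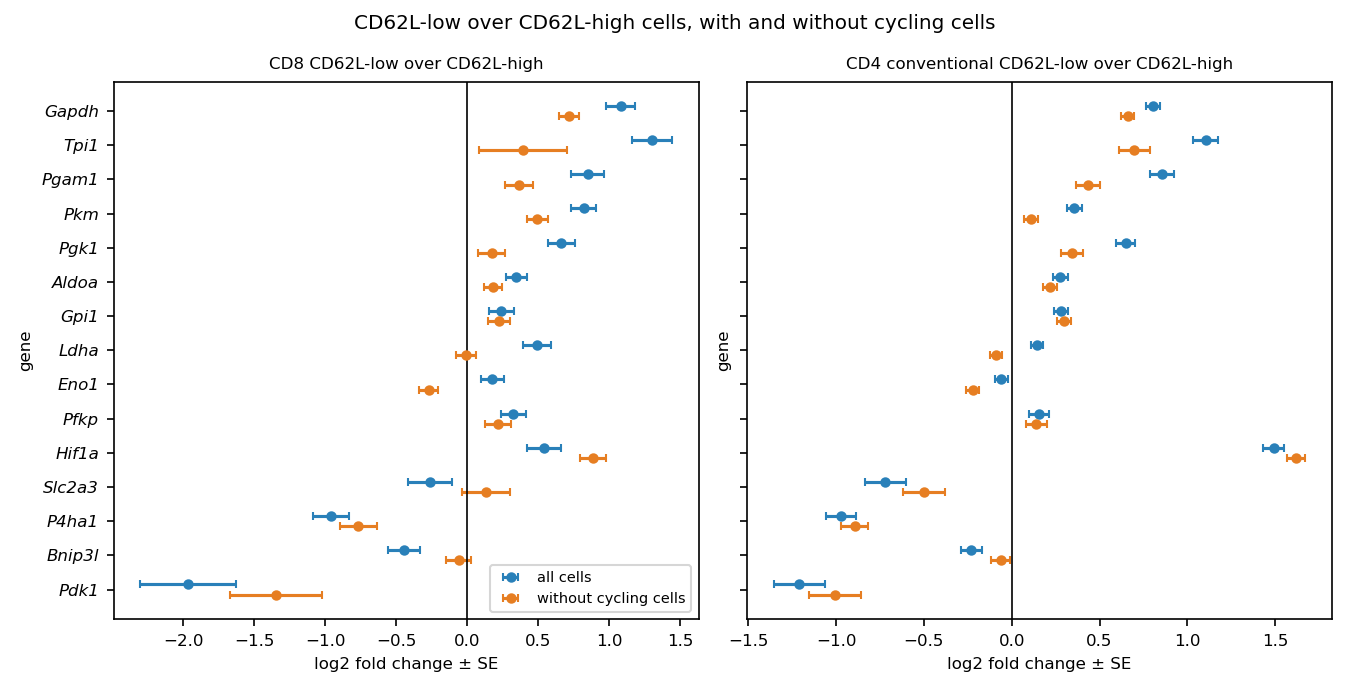
Log2 fold change (CD62L-low over CD62L-high) ± SE of 15 listed genes in CD8 and CD4 conventional cells, with all cells (blue) and without cycling cells (orange). Hif1a is still higher in CD62L-low cells without cycling cells (0.89 in CD8 and 1.62 in CD4 conventional cells), while Ldha lies near 0 (-0.0090 and -0.090).

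Cells of expanded clones differed from single cells of the same CD62L-low gate along similar lines. The expanded cells come from far fewer clonotypes. Taking 1 cell per clonotype left 29, 37, 32 and 31 of 144, 197, 322 and 325 expanded CD8 cells. It left 76, 95, 91 and 126 of 385, 447, 400 and 592 expanded CD4 conventional cells. The comparison was not repeated on these, so whether a few large clones carry the differences was not tested. In CD8 cells 10 of 23 tested listed genes were higher and 2 lower in expanded clones, with 36.5% of all genes called and 19% higher. Among CD4 conventional cells 12 of 31 were higher and 4 lower, with 29.6% called and 14.7% higher. In Treg 1 of 24 was higher and 0 lower, with 0.801% called. There 6 of them had an unadjusted p under 0.05, again without the share of all genes at that threshold. Medians over the listed genes were 0.30, 0.22 and 0.17 in CD8, CD4 conventional and Treg cells, beside -0.00099, -0.010 and -0.0092 over all genes. With cells thinned to 1500 UMIs 6 listed genes were called in CD8 and 6 in CD4 conventional cells, and DESeq2 called 9 in CD4 conventional cells.

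Within CD4 conventional cells Hif1a had the smallest adjusted p of the listed genes, at 504, 583, 616 and 544 CPM in expanded and 255, 209, 308 and 264 CPM in single cells. All Hif1a values of expanded cells were above those of single cells (log2 fold change 1.04 ± 0.072 SE, edgeR adjusted p = 1.8e-07). Gapdh read 1490.2, 1215, 1396 and 1028 CPM in expanded and 988, 711, 858 and 669 CPM in single CD4 conventional cells. Every expanded value of Gapdh lay above every single value (log2 fold change 0.59 ± 0.052 SE, edgeR adjusted p = 3.9e-07). Tpi1 read 138, 149, 156 and 165 CPM in expanded and 82.2, 64.6, 79.7 and 87.5 CPM in single cells. Tpi1 did not overlap between expanded and single cells and was higher in expanded cells (log2 fold change 0.88 ± 0.079 SE, edgeR adjusted p = 4.9e-07). Pgam1 read 187, 183, 183 and 197 CPM in expanded and 117, 91.9, 95.5 and 113 CPM in single cells. The Pgam1 ranges were apart, with all 4 expanded values the higher ones (log2 fold change 0.78 ± 0.072 SE, edgeR adjusted p = 6.8e-07). Pdk1 was lower, at 5.90, 5.38, 4.07 and 5.97 CPM in expanded and 15.6, 9.61, 17.0 and 10.1 CPM in single cells. All Pdk1 values of expanded cells were below those of single cells (log2 fold change -1.33 ± 0.25 SE, edgeR adjusted p = 7.4e-04). Slc16a3 was higher at 5.21, 8.86, 7.76 and 4.78 CPM in expanded and 4.38, 1.92, 2.49 and 2.89 CPM in single cells. Every expanded value of Slc16a3 lay above every single value (log2 fold change 1.10 ± 0.36 SE, edgeR adjusted p = 0.029). That call was lost without library 2 (log2 fold change 0.79, adjusted p = 0.15) or library 3 (log2 fold change 0.95, adjusted p = 0.14). The lowest expanded and the highest single Slc16a3 value lay close. Without cycling cells Hif1a was at 1.27, Gapdh at 0.52, Tpi1 at 0.65, Pgam1 at 0.60 and Pdk1 at -1.28, all called. In all, 11 of 16 calls held without them. Slc2a3 was lower in expanded cells (log2 fold change -0.93 ± 0.21 SE). Slc2a1 held 71.8% ± 7.66 of the UMIs of both transporters in expanded and 55.8% ± 6.40 in single cells (SD, n = 4, higher in 4 of 4 libraries, exact sign permutation p = 0.13).

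In CD8 cells Pkm read 684, 632, 759.7 and 839 CPM in expanded and 364, 362, 352 and 503 CPM in single cells. Pkm did not overlap between expanded and single cells and was higher in expanded cells (log2 fold change 0.80 ± 0.072 SE, edgeR adjusted p = 4.5e-08). Gapdh read 1872, 1410.5, 1723 and 1322 CPM in expanded and 838, 585, 760.2 and 798 CPM in single cells. The Gapdh ranges were apart, with all 4 expanded values the higher ones (log2 fold change 1.0 ± 0.073 SE, edgeR adjusted p = 8.4e-08). Ldha read 885, 839.8, 1045 and 1105 CPM in expanded and 543, 556, 506 and 807 CPM in single cells. All Ldha values of expanded cells were above those of single cells (log2 fold change 0.60 ± 0.075 SE, edgeR adjusted p = 8.1e-06). Pgk1 read 246, 247, 273 and 291 CPM in expanded and 159, 129.6, 162 and 203 CPM in single cells. Every expanded value of Pgk1 lay above every single value (log2 fold change 0.62 ± 0.093 SE, edgeR adjusted p = 3.0e-05). Tpi1 read 208, 169.8, 245 and 227 CPM in expanded and 69.0, 60.2, 57.0 and 147 CPM in single cells. Tpi1 did not overlap between expanded and single cells and was higher in expanded cells (log2 fold change 1.31 ± 0.21 SE, edgeR adjusted p = 0.0021). For Ldha, Pgk1 and Tpi1, library 4 of the single cells stood above the other 3 single libraries. Without cycling cells Pkm and Gapdh stayed called at 0.58 and 0.73. Ldha was at 0.056 (edgeR adjusted p = 0.78), Pgk1 at 0.089 (0.76) and Tpi1 at 0.56 (0.064) without them, and 5 of 12 calls held in all. Bnip3 was lower, at 1.14, 0.965, 2.0 and 1.62 CPM in expanded and 8.0, 6.39, 7.12 and 3.49 CPM in single cells. The Bnip3 ranges were apart, with all 4 expanded values the lower ones (log2 fold change -2.14 ± 0.60 SE, edgeR adjusted p = 0.0082). It rests on 18 UMIs in expanded and 21 UMIs in single cells. The call was lost without library 1 (log2 fold change -1.95, adjusted p = 0.052), and it was not tested for low counts without library 2 or 3. In Treg only Ldha was called, at 1205, 1413, 1360.0 and 1331 CPM in expanded and 786, 888, 852 and 1288 CPM in single cells. The Ldha ranges overlapped, and 4 of 4 libraries were higher in expanded cells (log2 fold change 0.50 ± 0.12 SE, edgeR adjusted p = 0.046). Library 4 of the single cells lay within the expanded range, and the call was lost without library 1 (log2 fold change 0.47, adjusted p = 0.47), library 2 (log2 fold change 0.45, adjusted p = 0.19) or library 3 (log2 fold change 0.45, adjusted p = 0.36).

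Levels by clone size among resting CD62L-low cells are given as a description, with no test. For CD4 conventional cells Hif1a averaged 237 ± 41.1 CPM in clones of 1 cell, 488 ± 81.2 CPM in clones of 2 to 4 and 671 ± 43.4 CPM in clones of 5 or more (SD, n = 4 each). The mean grew by more than the spread at each step. In CD8 cells it averaged 132 ± 18.5, 273 ± 131 and 233 ± 73.5 CPM over the same classes, the last 2 being within their spread of each other. Egln3 averaged 11.7 ± 2.68, 19.9 ± 5.53 and 24.9 ± 2.13 CPM in CD4 conventional cells. Its averages were 7.98 ± 2.47, 3.76 ± 5.27 and 1.86 ± 2.15 CPM in CD8 cells, so the means ran up in one lineage and down in the other. In CD8 cells the SDs of the last 2 classes exceeded their means and the classes lay within their spread of each other. Those classes held only 26 to 46 and 42 to 137 cells per library. Gapdh averaged 623 ± 84.0, 851 ± 112 and 1015 ± 151 CPM in CD4 conventional and 480.1 ± 20.6, 753 ± 151 and 919 ± 166 CPM in CD8 cells. Pdk1 ran down in CD4 conventional cells, at 15.2 ± 4.66, 7.51 ± 4.86 and 5.86 ± 1.90 CPM. Ldha was nearly level there at 581 ± 69.5, 591 ± 79.3 and 641 ± 46.4 CPM. The expansion effect on Egln3 differed between CD8 and CD4 conventional cells in the test over all cells (log2 difference -3.68 ± 0.55, SE, edgeR adjusted p = 1.8e-04). With cells thinned to 1500 UMIs it was -2.09 and not called (edgeR adjusted p = 0.34). Egln3 read 1.14, 1.45, 0.998 and 0.27 CPM in expanded and 7.0, 4.56, 8.90 and 6.98 CPM in single CD8 cells. It read 18.4, 19.3, 23.3 and 17.9 CPM in expanded and 11.7, 9.61, 9.14 and 15.2 CPM in single CD4 conventional cells. Expanded values lay below all single values in CD8 cells and above all of them in CD4 conventional cells. Within CD8 cells alone Egln3 had too few counts for expanded over single to be tested. The test of the difference between lineages called 3 of 30 listed genes, with 7.22% of all genes called and 2.87% called higher. The others were Pkm and Gapdh, with differences of 0.37 and 0.39. These were 0.28 (edgeR adjusted p = 0.36) and 0.21 (0.32) without cycling cells. The Pkm call was also lost without library 1 (log2 fold change 0.33, adjusted p = 0.12) or library 3 (log2 fold change 0.31, adjusted p = 0.13). The Gapdh call was lost without library 1 (log2 fold change 0.32, adjusted p = 0.18), library 2 (log2 fold change 0.34, adjusted p = 0.071) or library 3 (log2 fold change 0.38, adjusted p = 0.15). The same test of the cycling effect called 0 of 30 listed genes in edgeR, with 2.42% of all genes called and 1.34% called higher. There 9 listed genes had an unadjusted p under 0.05 and 0 were called by DESeq2. The share of all genes with an unadjusted p under 0.05 is not given, and the shares above are for adjusted calls.

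**Figure D4:**
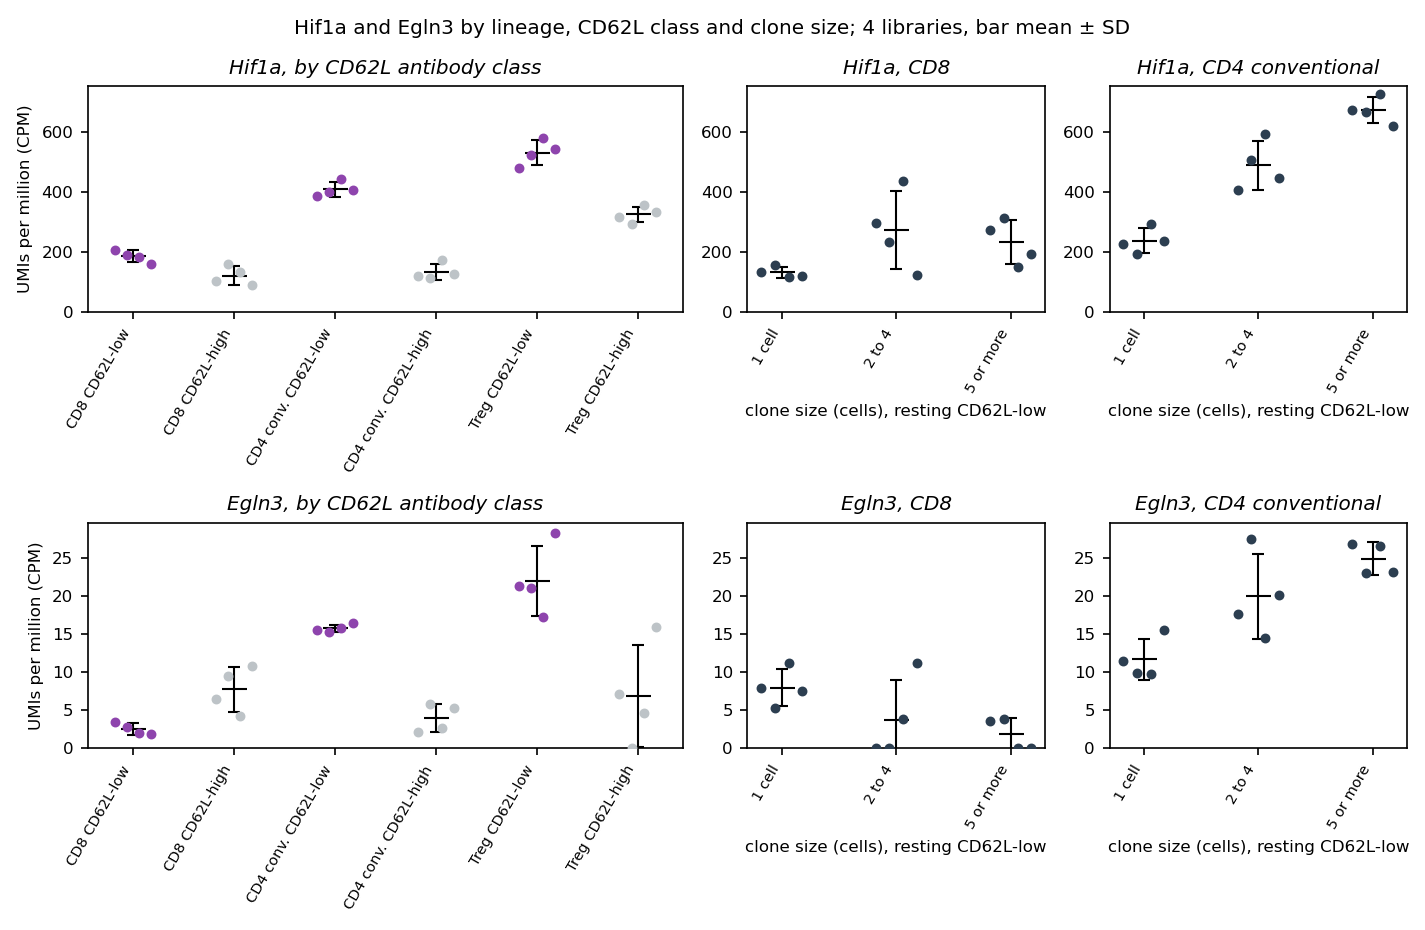
CPM per library (points) and mean ± SD (bars) of Hif1a and Egln3 by CD62L class in the 3 lineages, and by clone size among resting CD62L-low cells of CD8 and CD4 conventional cells. Hif1a is higher in larger clones of CD4 conventional cells, reaching 671 ± 43.4 CPM in clones of 5 or more, while Egln3 is higher with CD62L loss and clone size in CD4 conventional cells and lower in CD8 cells.

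Among CD62L-low cells, Treg held more of the pathway's mRNA than CD4 conventional cells, with no listed gene called lower. 17 of 31 tested genes were called higher in Treg, where 30.4% of all genes were called in either direction and 15.9% higher. The median over the listed genes was 0.37, beside -0.022 over all. Thinned to 1500 UMIs a cell, 8 listed genes were called. Slc16a3 had the largest fold, at 18.3, 36.4, 14.5 and 20.2 CPM in Treg and 4.50, 5.29, 4.73 and 3.94 CPM in CD4 conventional cells. Every Treg value of Slc16a3 lay above every CD4 conventional value (log2 fold change 2.23 ± 0.23 SE, edgeR adjusted p = 1.0e-08). Pkm read 900.2, 987, 943 and 1093 CPM in Treg and 641, 591, 591 and 649 CPM in CD4 conventional cells. Pkm did not overlap between Treg and CD4 conventional cells and was higher in Treg cells (log2 fold change 0.62 ± 0.044 SE, edgeR adjusted p = 1.1e-11). Ldha read 972, 1120.0, 925 and 1223 CPM in Treg and 727, 759, 688 and 802 CPM in CD4 conventional cells. The Ldha ranges were apart, with all 4 Treg values the higher ones (log2 fold change 0.46 ± 0.041 SE, edgeR adjusted p = 8.4e-10). Tpi1 read 165, 214, 176 and 214 CPM in Treg and 111, 107, 106 and 122 CPM in CD4 conventional cells. All Tpi1 values of Treg cells were above those of CD4 conventional cells (log2 fold change 0.75 ± 0.069 SE, edgeR adjusted p = 1.8e-09). Gapdh read 1582, 1409, 1410.4 and 1075 CPM in Treg and 1214, 954, 1064 and 834 CPM in CD4 conventional cells. The Gapdh ranges overlapped, and 4 of 4 libraries were higher in Treg cells (log2 fold change 0.39 ± 0.038 SE, edgeR adjusted p = 6.2e-09). Aldoc, the brain-type aldolase, read 7.63, 5.26, 9.96 and 10.8 CPM in Treg and 2.67, 4.26, 2.68 and 3.02 CPM in CD4 conventional cells. Aldoc did not overlap between Treg and CD4 conventional cells and was higher in Treg cells (log2 fold change 1.30 ± 0.34 SE, edgeR adjusted p = 0.0038).

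Both glucose transporters were higher in Treg. Slc2a3 stood at 26.7, 36.4, 31.7 and 32.9 CPM in Treg and 12.7, 19.6, 12.3 and 16.4 CPM in CD4 conventional cells. The Slc2a3 ranges were apart, with all 4 Treg values the higher ones (log2 fold change 1.01 ± 0.14 SE, edgeR adjusted p = 2.9e-06). Slc2a1 stood at 35.1, 43.1, 35.3 and 38.3 CPM in Treg and 23.3, 25.1, 30.9 and 26.7 CPM in CD4 conventional cells. All Slc2a1 values of Treg cells were above those of CD4 conventional cells (log2 fold change 0.50 ± 0.13 SE, edgeR adjusted p = 0.0031). Its call was lost without library 2 (log2 fold change 0.40, adjusted p = 0.069). Hif1a was higher too, at 479.8, 522, 578 and 541 CPM in Treg and 385, 401, 443 and 404 CPM in CD4 conventional cells. Every Treg value of Hif1a lay above every CD4 conventional value (log2 fold change 0.33 ± 0.047 SE, edgeR adjusted p = 2.5e-06). Of the targets, Bnip3 read 5.34, 12.0, 6.34 and 8.74 CPM in Treg and 4.17, 5.59, 4.57 and 2.89 CPM in CD4 conventional cells. The Bnip3 ranges overlapped, and 4 of 4 libraries were higher in Treg cells (log2 fold change 0.90 ± 0.31 SE, edgeR adjusted p = 0.026). The call was lost without library 2 (log2 fold change 0.82, adjusted p = 0.17) or library 4 (log2 fold change 0.71, adjusted p = 0.15). Pgk1 was higher by 0.37 ± 0.063 (log2, SE) with all cells and by 0.12 without cycling cells (edgeR adjusted p = 0.39). Slc16a3 was at 2.56, Pkm at 0.54 and Slc2a3 at 1.19 without them, and 13 of 17 calls held. Cycling cells made up 24.0, 20.5, 22.5 and 16.9% of Treg and 10.4, 7.10, 6.86 and 9.17% of CD4 conventional CD62L-low cells. The median UMI counts were 5031, 5375, 4930.5 and 3822 in Treg and 3748.5, 4017, 3690 and 3060 in CD4 conventional cells. Treg were gated on a Foxp3 UMI, which a cell with fewer UMIs is less likely to show. With cells thinned to 1500 UMIs 8 of 26 tested listed genes were called higher and 0 lower. Thinning came after the Foxp3 gate, so these fits cannot address that selection. The 5 myeloid markers summed to 219 to 249 CPM in Treg and 149 to 184 CPM in CD4 conventional cells, mostly Cst3. Neither their part nor that of the B cell markers above was tested. Around the list, Eno3, the muscle enolase, was higher in Treg at 2.36 ± 0.16 (log2, SE). Txnip and Epas1, which encodes HIF-2α, were lower at -0.62 ± 0.067 and -1.92 ± 0.38. The fold of CD62L-low over CD62L-high was smaller in Treg than in CD4 conventional cells for Gapdh (difference of log2 folds -0.45) and for Slc16a3 (difference -1.83). Without cycling cells these differences were -0.12 (edgeR adjusted p = 0.67) and -1.06 (0.56). The Gapdh call was also lost without library 1 (log2 fold change -0.34, adjusted p = 0.2) or library 4 (log2 fold change -0.35, adjusted p = 0.18). The Slc16a3 call was lost without library 1 (log2 fold change -1.80, adjusted p = 0.11), library 2 (log2 fold change -2.06, adjusted p = 0.067) or library 4 (log2 fold change -1.31, adjusted p = 0.35).

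CD8 and CD4 conventional CD62L-low cells differed in both directions. Of 31 tested genes 7 were higher and 9 lower in CD8 cells, with 41.1% of all genes called and 21.9% higher. Hif1a was lower in CD8 cells, at 207, 191, 183 and 159.8 CPM in CD8 and 385, 401, 443 and 404 CPM in CD4 conventional cells. The Hif1a ranges were apart, with all 4 CD8 values the lower ones (log2 fold change -1.10 ± 0.081 SE, edgeR adjusted p = 4.2e-06). Egln3 was lower as well, at 3.52, 2.84, 2.03 and 1.90 CPM in CD8 and 15.5, 15.3, 15.8 and 16.4 CPM in CD4 conventional cells. All Egln3 values of CD8 cells were below those of CD4 conventional cells (log2 fold change -2.62 ± 0.21 SE, edgeR adjusted p = 8.1e-06). Ldhb, a lactate dehydrogenase subunit, read 3.20, 4.39, 1.29 and 0.951 CPM in CD8 and 11.0, 8.82, 9.14 and 8.93 CPM in CD4 conventional cells. Every CD8 value of Ldhb lay below every CD4 conventional value (log2 fold change -2.01 ± 0.33 SE, edgeR adjusted p = 0.0013). Pgam1 was higher in CD8 cells, at 215, 183, 253 and 254 CPM in CD8 and 148, 136, 127 and 153 CPM in CD4 conventional cells. Pgam1 did not overlap between CD8 and CD4 conventional cells and was higher in CD8 cells (log2 fold change 0.72 ± 0.091 SE, edgeR adjusted p = 2.3e-04). Pfkp was higher at 135, 141, 178 and 171 CPM in CD8 and 111, 113, 118 and 119 CPM in CD4 conventional cells. The Pfkp ranges were apart, with all 4 CD8 values the higher ones (log2 fold change 0.48 ± 0.076 SE, edgeR adjusted p = 7.5e-04). It held 78.2% ± 1.48 of phosphofructokinase UMIs in CD8 and 69.0% ± 1.52 in CD4 conventional cells (SD, n = 4, exact sign permutation p = 0.13). Hif1a, Egln3, Ldhb, Pgam1 and Pfkp stayed called without cycling cells, at -0.99, -1.95, -1.33, 0.52 and 0.39. Gapdh, Tpi1 and Pgk1, called higher at 0.39, 0.62 and 0.31 with all cells, were at -0.10, -0.10 and -0.025 without cycling cells and no longer called. In this comparison 9 of 16 calls held. With cells thinned to 1500 UMIs 9 listed genes were called, and with 1 cell per clonotype 5. Pgk1 was also lost without library 3 (log2 fold change 0.23, adjusted p = 0.1) or library 4 (log2 fold change 0.24, adjusted p = 0.12). Dissociation genes were lower in CD8 cells, at 1137 to 1789 CPM in CD8 and 2802 to 4155 CPM in CD4 conventional cells, and their part was not tested.

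Some of these lineage differences were already present in CD62L-high cells. There 5 of 28 tested genes were higher and 6 lower in CD8 cells, with 19.4% of all genes called and 8.98% called lower. Pgam1 read 109, 128, 101 and 133 CPM in CD8 and 73.1, 54.7, 75.1 and 76.3 CPM in CD4 conventional cells. All Pgam1 values of CD8 cells were above those of CD4 conventional cells (log2 fold change 0.70 ± 0.10 SE, edgeR adjusted p = 1.4e-05). Pkm was lower, at 304, 312, 364 and 318 CPM in CD8 and 418, 403, 443 and 489 CPM in CD4 conventional cells. Every CD8 value of Pkm lay below every CD4 conventional value (log2 fold change -0.42 ± 0.054 SE, edgeR adjusted p = 3.0e-07). Ldhb was lower at 8.73, 1.35, 3.71 and 1.44 CPM in CD8 and 12.9, 10.6, 16.2 and 12.6 CPM in CD4 conventional cells. Ldhb did not overlap between CD8 and CD4 conventional cells and was lower in CD8 cells (log2 fold change -1.51 ± 0.33 SE, edgeR adjusted p = 0.002). P4ha1 read 62.2, 71.6, 44.0 and 54.8 CPM in CD8 and 80.9, 92.4, 58.0 and 76.0 CPM in CD4 conventional cells. The P4ha1 ranges overlapped, and 4 of 4 libraries were lower in CD8 cells (log2 fold change -0.39 ± 0.090 SE, edgeR adjusted p = 0.0017). Egln3 was higher here, at 6.55, 9.46, 4.24 and 10.8 CPM in CD8 and 2.21, 5.84, 2.67 and 5.28 CPM in CD4 conventional cells. The Egln3 ranges overlapped, and 4 of 4 libraries were higher in CD8 cells (log2 fold change 1.05 ± 0.36 SE, edgeR adjusted p = 0.035). This is opposite to CD62L-low cells, but the call was lost without library 1 (log2 fold change 0.83, adjusted p = 0.25), library 3 (log2 fold change 1.15, adjusted p = 0.054) or library 4 (log2 fold change 1.04, adjusted p = 0.14). Hif1a was not called, at 103, 159, 133 and 88.7 CPM in CD8 and 118, 113, 171 and 126 CPM in CD4 conventional cells (log2 fold change -0.18 ± 0.15, SE). In all, 8 of 11 calls held without cycling cells. Against these 11, fewer listed genes were called in other fits: 3 with DESeq2, 4 with cells thinned to 1500 UMIs, 5 with 1 cell per clonotype and 7 without the library block. Pkm was the listed gene whose CD62L difference was larger in CD8 than in CD4 conventional cells, by 0.47 ± 0.11 (log2, SE, edgeR adjusted p = 0.023). That Pkm call was lost without library 1 (log2 fold change 0.51, adjusted p = 0.062), library 3 (log2 fold change 0.46, adjusted p = 0.082) or library 4 (log2 fold change 0.31, adjusted p = 0.26).

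The remaining genes are given by their mean ± SD over the 4 libraries in CD8, CD4 conventional and Treg CD62L-low cells, in that order. Pfkfb3, which makes the activator of phosphofructokinase, averaged 23.3 ± 4.10, 27.3 ± 2.68 and 26.0 ± 2.53 CPM and was the 1 listed gene called in none of the 12 comparisons between populations. Its relative Pfkfb4 averaged 2.20 ± 0.689, 4.50 ± 0.802 and 3.40 ± 0.796 CPM and was lower in cycling than in resting CD4 conventional cells (log2 fold change -0.97 ± 0.39 SE). The Pfkfb4 call was lost without library 1 (log2 fold change -0.91, adjusted p = 0.088), library 2 (log2 fold change -0.93, adjusted p = 0.085) or library 3 (log2 fold change -0.74, adjusted p = 0.12). Egln1, the main oxygen-sensing hydroxylase, averaged 82.5 ± 3.57, 87.2 ± 4.84 and 85.9 ± 7.58 CPM. Its 1 call, higher in cycling CD4 conventional cells by 0.18 ± 0.076, was lost without any of the libraries in turn (adjusted p 0.06 to 0.18). Ankrd37, an ankyrin protein induced by HIF, averaged 6.77 ± 1.29, 7.51 ± 1.61 and 8.16 ± 2.19 CPM. It was higher in cycling CD8 and CD4 conventional cells (log2 fold changes 0.76 ± 0.31 and 0.62 ± 0.24, SE). The calls were lost without library 1 (log2 fold change 0.77, adjusted p = 0.071), library 2 (log2 fold change 0.75, adjusted p = 0.078), library 3 (log2 fold change 0.82, adjusted p = 0.072) or library 4 (log2 fold change 0.65, adjusted p = 0.13) in CD8 cells and without library 1 (log2 fold change 0.56, adjusted p = 0.12), library 2 (log2 fold change 0.53, adjusted p = 0.099) or library 3 (log2 fold change 0.62, adjusted p = 0.056) in CD4 conventional cells. Hk1 averaged 74.6 ± 2.15, 81.7 ± 2.32 and 85.2 ± 11.8 CPM, and Gpi1, which follows hexokinase, 379 ± 31.1, 394 ± 15.3 and 427 ± 38.5 CPM. The muscle phosphofructokinase Pfkm averaged 4.32 ± 0.491, 7.30 ± 1.76 and 5.52 ± 2.91 CPM. Aldoa averaged 675 ± 69.5, 678 ± 50.8 and 673 ± 79.5 CPM, and Eno1, enolase, averaged 643 ± 78.6, 570.5 ± 23.6 and 661 ± 76.1 CPM. With cycling their log2 fold changes were 0.51 ± 0.067, 0.41 ± 0.050 and 0.31 ± 0.089 for Aldoa and 1.04 ± 0.066, 0.77 ± 0.053 and 0.95 ± 0.092 for Eno1 (SE). The Treg call of Aldoa was lost without library 4 (log2 fold change 0.18, adjusted p = 0.12). Slc16a1 averaged 16.8 ± 3.51, 10.1 ± 0.856 and 14.4 ± 1.68 CPM and Ero1l 34.1 ± 2.74, 34.5 ± 2.97 and 42.9 ± 6.10 CPM. Ero1l had log2 fold changes of 0.54 ± 0.15, 0.40 ± 0.13 and 0.71 ± 0.20 (SE) with cycling. Its calls were lost without library 4 (log2 fold change 0.39, adjusted p = 0.059) in CD8 cells and without library 3 (log2 fold change 0.29, adjusted p = 0.086) in CD4 conventional cells. Vegfa was barely detected, with 4, 7 and 4 UMIs in all.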

How the data were processed

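CITE-seq libraries (10x 5' chemistry) from 4 replicates held mRNA, antibody (ADT) and TCR reads. The deposited matrices hold raw UMI counts per gene or antibody and barcode; per the file headers they were made with cellranger 4.0.0, and the submitters' processing notes name mm10 and Seurat with no role. The deposited TCR tables give read and UMI counts per contig. The sources used here do not say whether the authors removed doublets.

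Barcodes were kept with at least 500 UMIs, 300 genes, at most 8% mitochondrial UMIs, at least 1 Cd3 UMI, at most 1 TCR beta chain (against doublets) and at most 1 UMI of other-lineage markers, leaving 22563 of 27423. No doublet caller was run. UMIs were summed per population and library, for sums of at least 20 cells (20 to 1832 cells), and tested with edgeR 4.0.16 (R 4.3.3; quasi-likelihood, robust, TMM, filterByExpr, library as a block), with Benjamini-Hochberg adjustment over all genes of a comparison, called under 0.05. Populations of the same library come from the same cells' source, so the block is part of the design; residual correlations between sums of the same library were -0.061 to 0.37. The fits were tested on simulated data. Isozyme shares were tested with the exact two-sided sign permutation test.

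The members, gate rules and surrounding lists were chosen with earlier results of these data known, so counts over them are descriptions. Values in every library are given for 8 genes fixed with the design (Slc2a1, Slc2a3, Hk2, Gapdh, Pgk1, Ldha, Hif1a and Bnip3) where a result turns on them and, in each comparison, for the called members with the 4 smallest adjusted p and the 2 largest folds; of the surrounding lists, up to 4 called genes with the smallest adjusted p are named. Aldoa has 2 gene IDs, whose counts were summed for levels; the second, with 37 UMIs, was not tested. Alternatives were DESeq2 1.42.0, RLE normalization, no low-count filter, no other-lineage filter, at least 20 CD11a counts, no cycling cells, cells thinned to 1500 UMIs (those with fewer left out), 1 cell per clonotype, no replicate block, each library left out, and no genes with near-identical copies.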

Additional observations from a re-analysis of the deposited data

Results flagged for a closer look

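Of 75 groups of 4 libraries screened for 1 library far from the other 3, 3 values stood out, and chance alone gives about 1 in 20 such groups. The summed level of the 32 genes in single CD8 CD62L-low cells was 5109.3 CPM in library 4, above the other 3 libraries. Gapdh in CD62L-high Treg stood at 1351 CPM in library 1, above the other 3. Slc2a1 in CD62L-high CD4 conventional cells stood at 39.3 CPM in library 2, again the highest of the 4.

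Folds of CD62L-low over CD62L-high or of expanded over single cells differed between lineages for 9 pairs of gene and contrast. This rests on a test of the difference itself, and values are differences of log2 fold changes. CD8 minus CD4 conventional, the CD62L effect differed by 0.47 for Pkm, -3.66 for Egln3 and -0.93 for Hif1a. Treg minus CD4 conventional, it differed by -0.45 for Gapdh, -1.83 for Slc16a3 and -0.83 for Hif1a. CD8 minus CD4 conventional, the expansion effect differed by 0.39 for Gapdh, 0.37 for Pkm and -3.68 for Egln3. Egln3 in both contrasts and Hif1a in Treg kept their calls with any 1 library left out, and the other 6 did not. With 1 cell per clonotype none of the 6 CD62L differences was called; those of Egln3 and Hif1a were -1.74 and -0.76 for CD8 and that of Hif1a was -0.53 for Treg (edgeR adjusted p = 0.13, 0.16 and 0.15). With cells thinned to 1500 UMIs the Egln3 expansion difference was -2.09 and not called (edgeR adjusted p = 0.34).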

How the results depend on the processing

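Values below are counts of listed genes called, log2 ratios of the summed level of the 32 genes, or isozyme shares in percentage points; the value of the report follows in parentheses. CD62L stands for CD62L-low over CD62L-high, cycling for cycling over resting and expansion for expanded over single. With 1 cell per clonotype, counts were 3 (16) for CD8 CD62L, 1 (3) for Treg CD62L, 5 (16) for CD8 over CD4 conventional CD62L-low, 5 (11) for CD8 over CD4 conventional CD62L-high, 16 (25) for CD4 conventional cycling, 0 (3) for CD62L effect CD8 minus CD4 conventional and 0 (3) for CD62L effect Treg minus CD4 conventional. With cells of at least 20 CD11a counts, the count was 1 (0) for cycling effect. With those cells and without cycling cells, counts were 6 (12) for CD8 expansion, 2 (1) for Treg expansion, 1 (3) for CD62L effect Treg minus CD4 conventional and 1 (3) for expansion effect. With DESeq2, counts were 1 (3) for Treg CD62L, 3 (11) for CD8 over CD4 conventional CD62L-high, 9 (16) for CD4 conventional expansion and 0 (1) for Treg expansion. With RLE normalization, the count was 1 (0) for cycling effect. With cells thinned to 1500 UMIs, counts were 7 (16) for CD8 CD62L, 12 (22) for CD4 conventional CD62L, 6 (3) for Treg CD62L, 9 (16) for CD8 over CD4 conventional CD62L-low, 8 (17) for Treg over CD4 conventional CD62L-low, 4 (11) for CD8 over CD4 conventional CD62L-high, 6 (12) for CD8 expansion, 6 (16) for CD4 conventional expansion, 3 (1) for Treg expansion, 10 (20) for CD8 cycling, 9 (25) for CD4 conventional cycling, 7 (15) for Treg cycling and 1 (3) for CD62L effect Treg minus CD4 conventional. Summed levels were 0.41 (0.62) for CD8 CD62L, 0.33 (0.49) for CD4 conventional CD62L, 0.33 (0.43) for CD4 conventional expansion, 0.74 (0.88) for CD8 cycling and 0.62 (0.76) for CD4 conventional cycling. The gap in the Slc2a1 share, in points, was 29.6 (23.1) for CD4 conventional cycling and 8.15 (16.0) for CD4 conventional expansion. With no low-count filter, counts were 4 (1) for Treg expansion, 7 (3) for CD62L effect Treg minus CD4 conventional, 8 (3) for expansion effect and 2 (0) for cycling effect. With no filter on UMIs of other lineages, counts were 5 (3) for Treg CD62L, 6 (11) for CD8 over CD4 conventional CD62L-high and 6 (3) for expansion effect. With no replicate block, counts were 1 (3) for Treg CD62L, 7 (11) for CD8 over CD4 conventional CD62L-high, 0 (1) for Treg expansion, 1 (3) for CD62L effect Treg minus CD4 conventional and 1 (3) for expansion effect. Without cycling cells, counts were 10 (16) for CD8 CD62L, 5 (12) for CD8 expansion, 2 (1) for Treg expansion, 1 (3) for CD62L effect Treg minus CD4 conventional and 1 (3) for expansion effect. Summed levels were 0.30 (0.62) for CD8 CD62L, 0.34 (0.49) for CD4 conventional CD62L, -0.21 (0.077) for CD8 over CD4 conventional CD62L-low, 0.28 (0.36) for Treg over CD4 conventional CD62L-low, 0.40 (0.65) for CD8 expansion and 0.33 (0.43) for CD4 conventional expansion. The gap in the Slc2a1 share, in points, was 11.1 (16.0) for CD4 conventional expansion. Without the 7 genes with near-identical copies, summed levels were 0.30 (0.62) for CD8 CD62L, -0.20 (0.077) for CD8 over CD4 conventional CD62L-low, 0.27 (0.36) for Treg over CD4 conventional CD62L-low, 0.27 (0.65) for CD8 expansion, 0.19 (0.88) for CD8 cycling, 0.25 (0.76) for CD4 conventional cycling and 0.037 (0.59) for Treg cycling. The cause of these shifts was not tested, except that fits on fewer UMIs or cells test fewer genes. Shares of all genes called in these fits are not given, so shifts in the counts are not read as particular to the listed genes.

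Calls with the same direction numbered 80 of 119 without cycling cells, 85 of 154 with thinned cells, 55 of 109 with 1 cell per clonotype, 138 of 183 with DESeq2, 182 of 183 with RLE normalization, 182 of 183 with at least 20 CD11a counts, 82 of 119 with that and without cycling cells, an alternative added after seeing the data, 178 of 183 with no low-count filter, 171 of 183 with no other-lineage filter and 153 of 178 with no replicate block, of those that could be set side by side. Called values changed sign without cycling cells to -0.0090 (Ldha, CD8 CD62L), -0.090 (Ldha, CD4 conventional CD62L), -0.025, -0.10 and -0.10 (Pgk1, Tpi1 and Gapdh, CD8 over CD4 conventional CD62L-low), -0.10 (Eno1, Treg over CD4 conventional), -0.20 (Eno1, CD8 expansion) and 0.052 (Bnip3l, CD8 expansion); with at least 20 CD11a counts as well they were -0.037, -0.093, -0.089, -0.23, -0.11, -0.10, -0.18 and 0.047 in the same order. With thinned cells they were -0.058 (Ldha, CD4 conventional CD62L), -0.20 and -0.072 (Eno1 and Pfkl, Treg over CD4 conventional), -0.028 (Ldha, CD4 conventional expansion), -0.00049 and -0.070 (Gpi1 and Aldoa, Treg cycling) and 0.079 (Gapdh, CD62L effect Treg minus CD4 conventional). Leaving out each library in turn gave counts of 19 to 23 for CD4 conventional CD62L, 20 to 24 for CD4 conventional cycling, 11 to 14 for CD4 conventional expansion, 1 to 5 for CD62L effect CD8 minus CD4 conventional, 1 to 6 for CD62L effect Treg minus CD4 conventional, 12 to 19 for CD8 CD62L, 17 to 20 for CD8 cycling, 11 to 12 for CD8 expansion, 7 to 12 for CD8 over CD4 conventional CD62L-high, 14 to 18 for CD8 over CD4 conventional CD62L-low, 1 to 3 for Treg CD62L, 12 to 15 for Treg cycling, 0 to 4 for Treg expansion, 12 to 16 for Treg over CD4 conventional CD62L-low, 0 to 3 for cycling effect and 1 to 4 for expansion effect, summed levels of 0.47 to 0.51 for CD4 conventional CD62L, 0.71 to 0.78 for CD4 conventional cycling, 0.41 to 0.45 for CD4 conventional expansion, 0.57 to 0.71 for CD8 CD62L, 0.82 to 0.93 for CD8 cycling, 0.61 to 0.73 for CD8 expansion, 0.026 to 0.14 for CD8 over CD4 conventional CD62L-low, 0.54 to 0.63 for Treg cycling and 0.34 to 0.39 for Treg over CD4 conventional CD62L-low, and share gaps of 8.33 to 10.3 for Pfkp, CD8 over CD4 conventional CD62L-low, 20.7 to 24.9 for Slc2a1, CD4 conventional cycling, 14.9 to 17.9 for Slc2a1, CD4 conventional expansion, 10.6 to 19.5 for Slc2a1, CD8 cycling and 13.7 to 24.9 for Slc2a1, Treg cycling. The counts moved by over 1.5 times for Treg CD62L without library 1, 2 or 3 (1 each), CD8 over CD4 conventional CD62L-high without library 4 (7), Treg expansion without library 1, 2 or 3 (0 each) or 4 (4), the CD62L effect CD8 minus CD4 conventional without library 2 (5) or 4 (1), the CD62L effect Treg minus CD4 conventional without library 1 (1), 3 (6) or 4 (1), the expansion effect without library 3 (1) and the cycling effect without library 1 (3) or 2 (1). With 1 cell per clonotype, CD8 and Treg cycling and the cycling effect held too few cells to be fitted and expansion has no such fit, and Treg expanded clones without cycling cells lack library 3. Genes with few UMIs, such as Vegfa, Slc16a3, Egln3, Bnip3 and Hk2, are limited by depth.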
